A study of Mus musculus with 6 samples.

Results

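The genes described here are ribosomal protein pseudogenes of the mouse, defined as every entry of the counts table whose symbol starts with Rpl (large subunit) or Rps (small subunit) and contains -ps. The rule found 291 of 53801 genes, 182 of them Rpl and 109 Rps. RNA-seq measured polyadenylated RNA in the whole brains of 6 male C57BL/6 embryos at stage E16.5. Of these, 3 were Bahd1-KO (Bahd1-/-) and 3 were Bahd1-WT (Bahd1+/+), and the study obtained both genotypes from matings of heterozygous mice. The comparison asked whether loss of BAHD1, a protein that takes part in the formation of repressive chromatin, altered transcription in the embryonic brain. No other treatment was applied.

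A processed pseudogene arises when the messenger RNA of a gene is copied into DNA and inserted elsewhere in the genome, without introns and usually without a promoter. Ribosomal protein genes, whose mRNAs are abundant in every growing cell, have left more such copies in mammalian genomes than almost any other family. Because a recent copy still resembles its parent, a short read from the parent mRNA can align to the copy, and a count at a pseudogene is not by itself evidence that the pseudogene is transcribed.

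The annotation fitted the name. Of the 291 entries, 279 were annotated as processed pseudogenes, 6 as transcribed processed pseudogenes and 6 as protein-coding, and 281 had a single exon. Their transcripts were 151 to 1347 bases long, with a median of 456 bases. The parent gene was taken as the symbol up to -ps, which gave 61 parent genes in the table. For 286 members the named parent was also the best match among ribosomal protein transcripts. Among the other 5, Rps4l-ps matched Rps4x, while Rpl17-ps11, Rpl48-ps1 and Rps7-ps2 had no match. The median identity to the parent over the aligned part was 95.9%, and 14 members were identical to it.

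Stretches of 4 members beside their parents show how close the copies are (GRCm38, 5′ to 3′ on the strand of the pseudogene, taken from GENCODE M21 transcripts). Capitals mark the bases at which pseudogene and parent differ, and each stretch of 120 bases is the one in the coding part with the most differences. The first pair is the pseudogene of the highest level, Rpl14-ps1, at chr7:45325268-45325387 (plus strand), beside coding bases 304 to 423 of Rpl14, which differ at 2 bases.
Rpl14-ps1: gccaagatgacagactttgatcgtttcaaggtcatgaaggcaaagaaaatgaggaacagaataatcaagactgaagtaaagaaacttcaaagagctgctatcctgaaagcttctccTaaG
Rpl14: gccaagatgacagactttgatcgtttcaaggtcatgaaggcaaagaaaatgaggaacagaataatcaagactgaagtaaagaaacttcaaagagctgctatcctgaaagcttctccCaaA
The next is Rps19-ps3, the second in level, at chr4:147821942-147822061 (minus strand), beside coding bases 154 to 273 of Rps19, with 8 differences.
Rps19-ps3: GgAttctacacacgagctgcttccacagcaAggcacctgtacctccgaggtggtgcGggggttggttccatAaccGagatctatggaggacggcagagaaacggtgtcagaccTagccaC
Rps19: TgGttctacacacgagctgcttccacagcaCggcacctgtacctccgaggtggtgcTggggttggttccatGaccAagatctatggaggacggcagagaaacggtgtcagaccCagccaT
Rps16-ps2 at chr5:129128398-129128517 (minus strand) has no difference from coding bases 1 to 120 of Rps16, so that a read from here fits both genes.
Rps16-ps2: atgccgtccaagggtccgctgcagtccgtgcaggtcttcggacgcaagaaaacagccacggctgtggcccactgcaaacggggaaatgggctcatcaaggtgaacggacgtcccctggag
The last is Rps12-ps11 at chrX:124470223-124470342 (minus strand), whose 120 bases are shared by 5 members and differ from coding bases 16 to 135 of Rps12 at 5 positions. It belongs to a group of copies with almost no counts.
Rps12-ps11: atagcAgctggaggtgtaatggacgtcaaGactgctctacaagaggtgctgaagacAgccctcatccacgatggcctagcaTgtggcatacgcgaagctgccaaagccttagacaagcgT
Rps12: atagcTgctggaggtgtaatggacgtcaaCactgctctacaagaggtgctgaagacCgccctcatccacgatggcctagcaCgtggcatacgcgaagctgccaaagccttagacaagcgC

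The libraries held 61.7 to 91.8 × 1e6 counts. For Bahd1 there were 2, 10 and 6 counts in Bahd1-KO embryos, against 1971, 3102 and 3470 in Bahd1-WT embryos. The library of Bahd1-KO embryo 3 stood apart and went against its brain label. Ribosomal RNA genes (Gm42418, mt-Rnr1 and mt-Rnr2) took 44.7% of its counts, against 0.249 to 0.614% in the other 5 libraries. The summed level of 5 neuronal markers was 672 CPM (counts per 1e6 counts of the library) in it and 8163 to 9389 CPM elsewhere, and that of 5 progenitor markers was 363 CPM against 1001 to 1306 CPM. Its 5 lung markers (Sftpc, Sftpb, Sftpa1, Scgb1a1 and Nkx2-1) summed to 859 CPM against 14.8 to 29.4 CPM. Its 5 skeletal muscle markers summed to 66.2 CPM against 3.68 to 10.5 CPM. Blood markers ranged from 127 to 598 CPM. Liver markers (Alb, Afp, Apoa1, Serpina1a and Ttr) ranged from 44.4 CPM (Bahd1-KO embryo 3) to 774 CPM. The liver sum was not split by gene, and no amount of liver tissue is read from it. Placental markers, 1 of 5 at 0 throughout, reached 8.58 CPM in Bahd1-KO embryo 2 and at most 0.0981 CPM elsewhere. The main tests, the summed level of the members and the fold changes of the main fit are therefore given with and without Bahd1-KO embryo 3. Levels per length and counts of members that did not overlap between genotypes rest on all 6 embryos. In whole tissue, fewer cells of a type and less RNA per cell cannot be told apart.

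Most ribosomal protein pseudogenes had few counts or none. Together they drew 3476 counts over the 6 embryos, 0.000722% of all counts. In 103 of 291 there was no count in any embryo, 119 had a sum of 1 to 9 counts, and 69 (23.7%) reached the sum of 10 used as the minimum for testing. Only 6 exceeded 100 counts. At least 1 count was found in 64.6% of them, against 28.5% of the 1224 other named pseudogenes of the table and 62.7% of all genes, whereas 14.0% of the other named pseudogenes and 46.0% of all genes reached a sum of 10. A count of 0 in a library still allows a level of 0.0327 to 0.0486 CPM, the limit from 3 counts, which covers counting error only.

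Presence differed from embryo to embryo. In the Bahd1-KO embryos 91, 125 and 96 members had a count, and in the Bahd1-WT embryos 107, 108 and 129. The genotypes overlapped, and the smallest library (Bahd1-KO embryo 1) had the lowest number. A count in all 6 embryos was found for 41 members, and 45 had counts in a single embryo. The 41 held 74.5% of the counts of the family, with a median sum of 29. At 5 or more counts in every embryo 11 members were left, and at 10 or more there were 5, namely Rpl14-ps1, Rps19-ps3, Rpl29-ps2, Rps24-ps3 and Rps16-ps2. Leaving out Bahd1-KO embryo 3, 49 members had a count in each of the other 5.

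**Figure D1:**
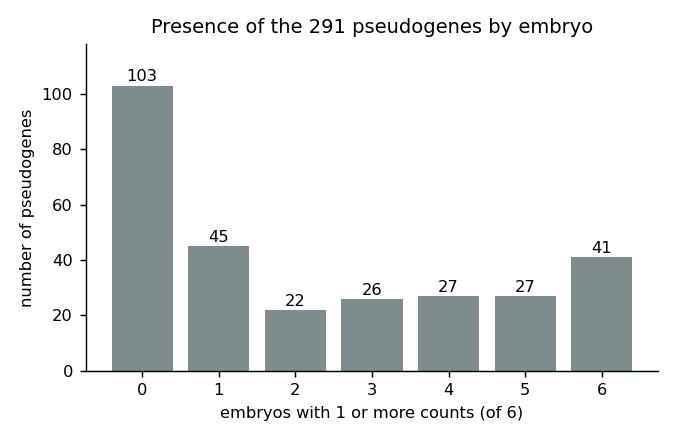
Number of ribosomal protein pseudogenes (y axis) by the number of embryos in which they had 1 or more counts (x axis, 0 to 6). The highest bar is that of the 103 members without a count, and the number with a count in all 6 embryos (41) is higher than that with a count in 2, 3, 4 or 5.

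No member switched between clear presence and absence: none had at most 3 counts in one embryo and at least 30 in another. Only 3 members had 30 counts or more in any embryo. In addition, 28 members were counted in Bahd1-KO embryos alone and 31 in Bahd1-WT embryos alone, all at low counts. None was counted in all 3 Bahd1-KO embryos and absent from Bahd1-WT. The reverse held for 3 members, named here after their values were seen: Rps6-ps2 (0 counts in each Bahd1-KO embryo, against 1, 2 and 2 in Bahd1-WT), Rps2-ps9 (0, and 1, 2 and 1) and Rpl17-ps5 (0, and 1, 1 and 1). All of these counts lie within the limit that a count of 0 allows, so that absence from Bahd1-KO was not detectable at this depth. Each Bahd1-WT library also held more counts in total than each Bahd1-KO library. The numbers of members counted in a single genotype have no background from all genes, and no genotype difference is read from them.

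Levels were concentrated in a few members. Rpl14-ps1 alone took 20.1% of the 3476 counts, Rpl14-ps1 and Rps19-ps3 together 31.6%, and the 10 highest members 52.3%. Those 10 copied 10 different parents.

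Rpl14-ps1 (ENSMUSG00000046721, chr7:45324965-45325617, plus strand) copies Rpl14, a protein of the large subunit. It lies within an intron of Trpm4, which encodes a cation channel and is transcribed from the opposite strand. In the Bahd1-KO embryos 75, 164 and 134 counts were found, against 114, 71 and 142 in the Bahd1-WT embryos. The highest count was in Bahd1-KO embryo 2 and the lowest in Bahd1-WT embryo 2, and the genotypes overlapped. Its level was 1.69 ± 0.465 CPM in Bahd1-KO and 1.22 ± 0.343 CPM in Bahd1-WT (SD, n = 3). The fitted log2 fold change was 0.71 (SE 0.46, adjusted p = 0.696), and 0.44 without Bahd1-KO embryo 3 (adjusted p = 0.981). Of its 589 windows of 65 bases, the length of a read, 161 were found in no other annotated transcript and 428 were also present in Rpl14.

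Rps19-ps3 (ENSMUSG00000080059, chr4:147821777-147822202, minus strand) copies Rps19, a small subunit protein known for its mutation in Diamond-Blackfan anaemia. No annotated gene overlaps it. Its counts were 50, 88 and 15 in Bahd1-KO embryos, against 48, 83 and 116 in Bahd1-WT embryos. Bahd1-KO embryo 3 was the lowest, and the other 5 embryos lay between 48 and 116 counts. Its mean level was 0.717 ± 0.487 CPM for Bahd1-KO and 0.937 ± 0.380 CPM in Bahd1-WT (SD, n = 3), with a log2 fold change of -0.31 (SE 0.61, adjusted p = 0.866) that turned to 0.06 when Bahd1-KO embryo 3 was left out (adjusted p = 0.993). Its copy differs more from the parent than that of Rpl14-ps1 does (95.4% against 98.9% identity), and 258 of its 362 windows were its own.

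The next 4 members had similar totals. Rps15a-ps4 (chr4:132219988-132220489, minus strand), annotated as transcribed, had 10, 29 and 7 counts in Bahd1-KO embryos, against 23, 20 and 38 in Bahd1-WT embryos. Rpl29-ps2 (chr13:4609334-4615025, plus strand), also annotated as transcribed and made of 4 exons, had 24, 23 and 10 counts in Bahd1-KO embryos, against 24, 23 and 14 in Bahd1-WT embryos. Both were lowest in Bahd1-KO embryo 3. Rps24-ps3 (chrX:79195047-79195448, plus strand) had 19, 25 and 19 counts in Bahd1-KO embryos, against 19, 11 and 24 in Bahd1-WT embryos. Rps16-ps2 (chr5:129128077-129128517, minus strand), opposite an intron of Adgrd1, had 20, 17 and 21 counts in Bahd1-KO embryos, against 22, 11 and 22 in Bahd1-WT embryos. In all 4 the genotypes overlapped, and the log2 fold changes were -0.42 (SE 0.58), 0.34 (SE 0.54), 0.73 (SE 0.50) and 0.63 (SE 0.54), in that order. Without Bahd1-KO embryo 3 they were -0.17, 0.54, 0.63 and 0.37. Other single libraries also moved them by over 1.5 times: Rps15a-ps4 was at -0.23 without Bahd1-KO embryo 1, -1.02 without Bahd1-KO embryo 2 and -0.15 without Bahd1-WT embryo 3, and Rpl29-ps2 at 0.088 without Bahd1-KO embryo 1 and 0.095 without Bahd1-WT embryo 3. Rps16-ps2 was at 0.39 without Bahd1-WT embryo 2.

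Lower totals among the 10 were those of Rpsa-ps9, Rps12-ps26 and Rpl31-ps8. Rpsa-ps9 (chr2:28477166-28478050) had 69. Rps12-ps26 (chr11:107171900-107172232) had 61 and lies within an intron of a gene on its own strand, Nol11 (a nucleolar factor of ribosome production). Rpl31-ps8 (chr15:90764279-90764656) had 55 and is identical to its parent. Rps12-ps26 was the most even of those described, with 9, 8 and 10 counts in Bahd1-KO embryos, against 11, 11 and 12 in Bahd1-WT embryos. Strand-specific counting does not separate reads of the unspliced host RNA from its own.

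**Figure D2:**
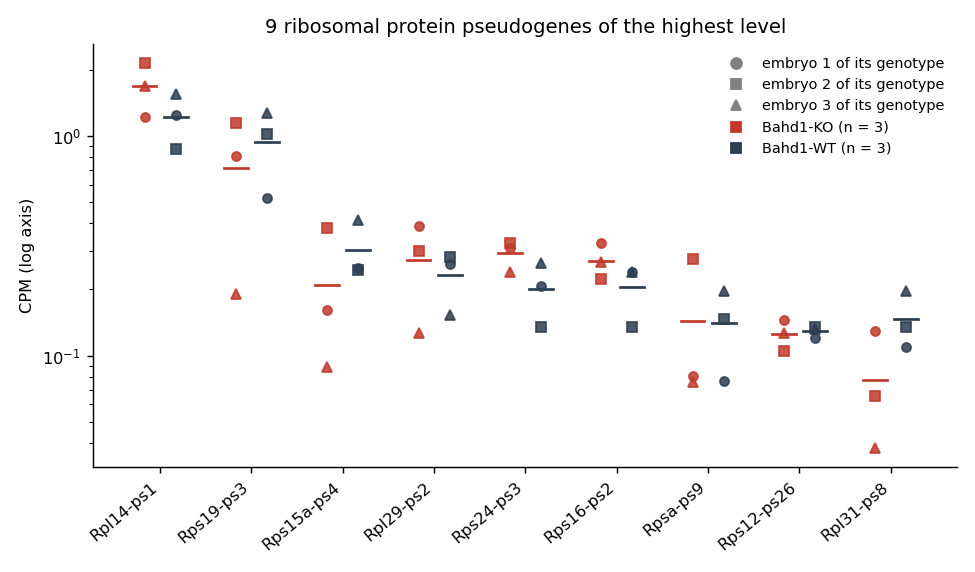
Level in CPM (log axis) of 9 of the 10 members of the highest mean level in each of 6 embryos, Bahd1-KO in red and Bahd1-WT in dark blue, with symbols for the embryo number and a horizontal line at the mean of each genotype. The means of Rpl14-ps1 and Rps19-ps3 lie above those of the other 7, and the genotypes overlap in each of the 9.

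Per base of length the order changed little at the top. On the RPKM scale (counts per kilobase of exon and 1e6 counts), the mean over the 6 embryos was 2.23 for Rpl14-ps1 and 1.94 for Rps19-ps3, followed by Rps24-ps3 (0.614), Rps16-ps2 (0.540) and Rps15a-ps4 (0.512). Between the first 2 the spread was wider than the distance: Rps19-ps3 had 1.68 ± 1.14 RPKM in Bahd1-KO and 2.20 ± 0.893 RPKM in Bahd1-WT, and Rpl14-ps1 had 2.58 ± 0.712 and 1.87 ± 0.525 RPKM (SD, n = 3). Rpl29-ps2, which is long, fell to 0.191 RPKM.

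The members were related to their parents in sequence and in counts. Counts were higher at higher identity to the parent. The median sum over the 6 embryos was 0 for 59 members of under 90% identity, 1 for 65 members of 90 to under 95%, 3 for 65 members of 95 to under 98%, 6 for 83 members of 98 to under 100%, and 6 for the 14 identical members. The share with any count was 30.5%, 60%, 75.4%, 83.1% and 71.4% in the same order. Across the 286 members that aligned to their parent, Spearman's rho of identity and summed counts was 0.42. It is a description across genes, which share libraries and, within a family, their sequence. The correlation with the parent's summed counts was weaker (rho 0.14).

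How much of a member could be told from other transcripts did not follow its counts in a simple way. In 33 members no window of 65 bases was free of a match in another annotated transcript, and yet 13 of these had counts, 289 in all. Of these Rps16-ps2 had 113, Rpl31-ps8 55, Rpl10a-ps1 42 and Rps6-ps4 35, and each of the 4 is identical to its parent over the aligned part. Other identical copies, Rpl15-ps3, Rps12-ps3 and Rps23-ps1, had no count in any embryo. The share with a count was 68.8% at 1 to 100 own windows (32 members), 75.7% at over 100 to 300 (103 members) and 61.0% over 300 (123 members). For the number of own windows and the summed counts Spearman's rho was 0.01 over 291 members. Which reads were assigned to the pseudogene and which to the parent cannot be told apart from the counts.

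**Figure D3:**
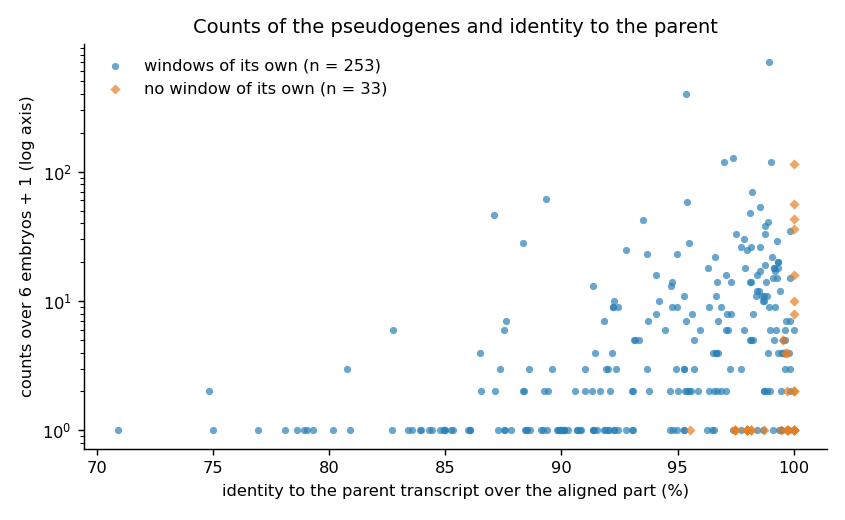
Counts over the 6 embryos plus 1 (y axis, log scale) against identity to the parent transcript in percent (x axis) for 286 members. Blue circles are 253 members with at least 1 window of 65 bases of their own, and orange diamonds are 33 members without. Members of low identity lie mostly at the bottom, and the 33 members without a window of their own run from 0 to 113 counts.

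The copies of Rps12 show the same gene at both ends of the scale. Of its 23 copies, 13 lie in a stretch of 2.70 Mb of the X chromosome (chrX:123285044-125987364), 9 on the minus strand and 4 on the plus strand, with at least 95.3% identity to Rps12. In 9 of the 13 no window was their own, Rps12-ps11 among them. The 13 together had 2 counts, both from Rps12-ps23 in Bahd1-WT embryo 3. The other 10 copies of Rps12 had 87 counts, of which 61 were from Rps12-ps26, whose identity of 89.3% is lower than that of any copy in the X group. Over the whole X chromosome, 16 of 35 members had a count, against 172 of 256 on the other chromosomes. The 35 include the 13 Rps12 copies of the X group, of which 1 had a count.

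Families differed in how their counts were divided. Rpl31 and Rps12 had the most copies, 23 each, followed by Rpl21 (15), Rps19 (14), Rpl23a (14) and Rpl7a (12). Rps19-ps3 supplied 400 of the 410 counts of the 14 Rps19 copies. The Rpl31 copies were more even, with counts in 16 of 23 and 55 of 221 from the highest, Rpl31-ps8. In the Rpl21 family 14 of 15 copies had counts, and in the Rps15a family 8 of 8. The 14 copies of Rpl23a drew 16 counts in all. There were 6 parents whose copies had no count at all, each of a single copy.

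Counts also differed by position within other genes. Of 25 members in an intron of a gene on the same strand, 21 had a count (84%) and the median sum was 6. Of 260 members with no gene on the same strand, 162 had a count (62.3%) and the median sum was 1. A further 6 members overlapped an exon on the same strand, with a median sum of 4. Opposite a gene of the other strand lay 61 members, of which 39 had a count. Without a test, these shares are descriptions, and their relation to identity was not separated.

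Scaled by total counts, the level of the family was highest in the embryos in which that of the parents was highest. The summed level of the members was 6.27, 9.74 and 6.06 CPM in the Bahd1-KO embryos, against 5.85, 6.17 and 9.05 CPM in the Bahd1-WT embryos. That of the 61 parents was 5665, 8253 and 4285 CPM in Bahd1-KO embryos, against 5548, 7047 and 9826 CPM in Bahd1-WT embryos. Bahd1-KO embryo 2 and Bahd1-WT embryo 3 were the highest on both measures. These 2 libraries were also the highest in blood markers (598 and 507 CPM, against 127 to 352 CPM) and in liver markers (769 and 774 CPM, against 44.4 to 409 CPM), and the part of this in the level was not tested. By genotype the members summed to 7.36 ± 2.07 CPM in Bahd1-KO and 7.02 ± 1.76 CPM in Bahd1-WT (SD, n = 3), a difference smaller than the spread between embryos. Without Bahd1-KO embryo 3 the Bahd1-KO mean was 8.01 ± 2.46 CPM (SD, n = 2). The order of the embryos depended on the scaling. With ribosomal RNA genes left out of the totals, the members were highest in Bahd1-KO embryo 3, at 10.9 CPM. Bahd1-KO embryo 2 was then at 9.80 CPM and Bahd1-WT embryo 3 at 9.08 CPM. The level of the parents was not computed in that way.

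Set against their parents, the members summed together had more counts in Bahd1-KO, but the median member did not. For each 1000 counts of the parent genes, the pseudogenes had 1.107, 1.18 and 1.41 counts in Bahd1-KO embryos, against 1.05, 0.875 and 0.921 in Bahd1-WT embryos. Each Bahd1-KO value was above each Bahd1-WT value, and the closest pair was Bahd1-KO embryo 1 and Bahd1-WT embryo 1. The means were 1.23 ± 0.160 and 0.950 ± 0.0933 (SD, n = 3). The highest value was that of Bahd1-KO embryo 3. Its parents were the lowest of the 6 in CPM of total counts, of which ribosomal RNA genes took 44.7% in that library. The ratio, made of counts within a library, does not depend on that total. Without Bahd1-KO embryo 3 the Bahd1-KO mean was 1.14 ± 0.0522 (SD, n = 2), and both values stayed above those of Bahd1-WT. No test was made of this ratio, which combines many members. It also depended on how the members were combined. When the median ratio over the 69 members with a sum of at least 10 was used in place of the ratio of sums, the means were 0.409 ± 0.0570 and 0.413 ± 0.0680 (SD, n = 3). Without the 10 highest members the ratio of sums was 0.460, 0.561 and 0.718 in Bahd1-KO embryos, against 0.499, 0.418 and 0.454 in Bahd1-WT embryos, and the genotypes overlapped.

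**Figure D4:**
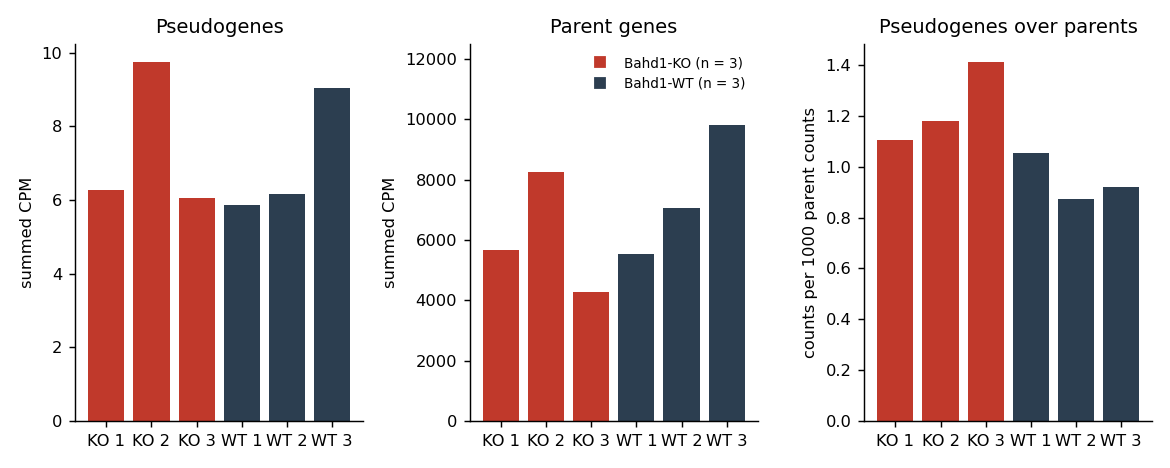
Values by embryo (x axis, Bahd1-KO in red, Bahd1-WT in dark blue): summed CPM of the 291 pseudogenes (left), summed CPM of their 61 parent genes (middle), and pseudogene counts per 1000 parent counts (right). The first 2 panels are highest in Bahd1-KO embryo 2 and Bahd1-WT embryo 3, and in the right panel the 3 Bahd1-KO bars (1.107 to 1.41) are above the Bahd1-WT bars (0.875 to 1.05).

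For single members the share of the parent's counts varied widely. Rps19-ps3 had the highest among members with at least 60 counts, 19.1 counts per 1000 of Rps19. By embryo it was 41.0, 21.7 and 8.63 in Bahd1-KO embryos, against 19.1, 20.1 and 15.9 in Bahd1-WT embryos, so that the Bahd1-KO embryos had both the highest and the lowest value. Rpl14-ps1 followed with 9.42 per 1000 of Rpl14, at 9.56, 11.2 and 16.3 in Bahd1-KO embryos, against 10.3, 6.05 and 6.84 in Bahd1-WT embryos. Rpl29-ps2 had 6.91, Rps16-ps2 4.07 and Rps15a-ps4 1.23 per 1000. These are ratios of counts, not of levels per length.

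Few members kept the genotypes apart on this ratio. Among the 69 members with a sum of at least 10, it was higher in each Bahd1-KO embryo for 4 (5.80%) and lower in each for 2 (2.90%). No such ratio exists for genes at large, and none was computed for the other named pseudogenes. These shares are therefore given without a background, and nothing is read from them. Rps24-ps3 was in the first group, with 0.772, 0.817 and 0.855 counts per 1000 of Rps24 in Bahd1-KO embryos, against 0.593, 0.418 and 0.563 in Bahd1-WT embryos.

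Tested gene by gene, no member was called. Of 69 members tested, 0 passed the adjusted threshold of 0.05 in the quasi-likelihood test of edgeR, where 1 of 24739 genes (0.00404%) passed, Bahd1 itself. Bahd1 passed narrowly in that test, with an adjusted p of 0.046 at a log2 fold change of -8.40. The adjusted p of the members ran from 0.696 to 0.996. At an unadjusted p under 0.05 there were 2 members, both higher in Bahd1-KO, which is 2.90% of the 69, beside 4.51% of all genes higher and 0.166% of all genes lower. DESeq2 called 0 members and had 0 at an unadjusted p under 0.05, beside 8 and 1266 of all 24739 genes. Without Bahd1-KO embryo 3, edgeR called 0 of 62 members, with 1, higher in Bahd1-KO, at an unadjusted p under 0.05. Over all genes that fit called 4 of 23334, with 255 higher and 90 lower at an unadjusted p under 0.05.

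The fold changes had no common direction. Of the 69, 37 were above 0 and 32 below, and their median was 0.06 on the log2 scale, beside 0.06 over all genes tested. The 79 cytosolic ribosomal protein genes had a median of -0.24 (27 above 0, 52 below, 0 called). The 171 other named pseudogenes tested had a median of 0.05. Scaled by total counts instead, the medians fell to -0.15 for the members and -0.11 for all genes, and the members split into 30 higher and 39 lower. The standard errors of single members were wide, with a median of 0.92 on the log2 scale. Without Bahd1-KO embryo 3 the median log2 fold change was -0.004 for the members (31 above 0, 31 below) and -0.008 over all genes. It was then -0.17 for the ribosomal protein genes (24 above 0, 55 below) and 0.06 for the other named pseudogenes.

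In 3 members (4.35% of 69) the CPM of each Bahd1-KO embryo was above that of each Bahd1-WT embryo, and in 1 (1.45%) it was below, beside 3.97% and 2.09% of all genes tested. Rpl30-ps11 (ENSMUSG00000081461, chrX:12456886-12457230, minus strand) had the lowest p and was, with Rpsa-ps1, under 0.05 before adjustment. Its counts were 3, 4 and 4 in Bahd1-KO embryos, against 0, 1 and 1 in Bahd1-WT embryos, and its log2 fold change was 2.73 (SE 0.92, adjusted p = 0.696 by edgeR). Without Bahd1-KO embryo 3 its sum fell below 10 and it was not tested.

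Rpsa-ps1 (ENSMUSG00000102117, chr1:163623793-163624678, plus strand), a copy of the laminin receptor and small subunit protein gene Rpsa, had 4, 8 and 3 counts in Bahd1-KO embryos, against 2, 1 and 3 in Bahd1-WT embryos. Each Bahd1-KO embryo was higher once library size was taken into account. Its log2 fold change was 1.70 (SE 0.70, adjusted p = 0.696 by edgeR), and 1.84 without Bahd1-KO embryo 3 (adjusted p = 0.981). Rpl5-ps2, named after its values were seen, was the third of those higher in each Bahd1-KO embryo, with 5, 9 and 7 counts against 7, 4 and 5 in Bahd1-WT.

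The other members of the lowest p were lower in Bahd1-KO. Rpl19-ps9 (chr6:71683298-71683885, plus strand) had 1, 3 and 0 counts in Bahd1-KO embryos, against 5, 4 and 11 in Bahd1-WT embryos, with every Bahd1-KO embryo below every Bahd1-WT embryo. Rps13-ps4 (chr8:119602170-119602625, minus strand), in an intron of Taf1c on the same strand, had 1, 1 and 0 counts in Bahd1-KO embryos, against 1, 8 and 8 in Bahd1-WT embryos. Rps10-ps1 (chr3:95622278-95622772, plus strand) had 0, 2 and 0 counts in Bahd1-KO embryos, against 1, 4 and 6 in Bahd1-WT embryos. Their log2 fold changes were -1.82, -2.47 and -1.90, in that order, and -1.36, -2.06 and -1.46 without Bahd1-KO embryo 3. Without Bahd1-KO embryo 2, Rpl19-ps9 was at -2.89 and Rps10-ps1 at -4.71. All 3 were at 0 in Bahd1-KO embryo 3, and their adjusted p was 0.696 by edgeR. The counts are too few for a fold to be read with any precision.

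**Figure D5:**
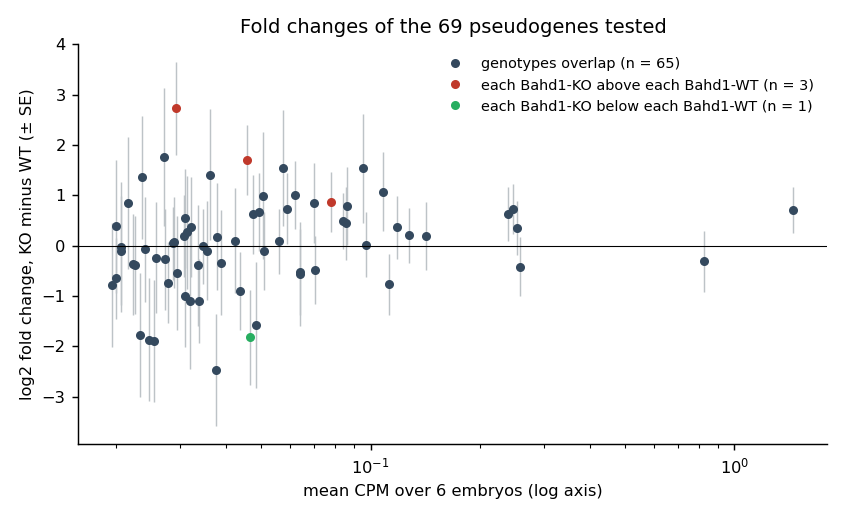
Fitted log2 fold change, Bahd1-KO minus Bahd1-WT, with its standard error (y axis) against mean CPM over 6 embryos (x axis, log scale) for the 69 members tested. Red points are 3 members higher in each Bahd1-KO embryo, the green point is 1 member lower in each, and the 65 dark points overlap between genotypes, with the points to the right closer to 0.

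Some members were high in Bahd1-KO embryo 3 alone, and are named after their values were seen. Rps27a-ps1 (chr1:52522239-52522701, plus strand) had 22 counts there and 1 to 6 in the other 5 embryos. Rpl21-ps10 (chr3:38107443-38107922, minus strand), inside Gm43821 on the same strand, had 19 there and 5 to 8 elsewhere. Rpl31-ps17 (chr12:54701329-54701706, minus strand) had 12 there and 0 to 4 elsewhere. This is the library in which neuronal markers were low and lung markers high, and the part of that difference in these counts was not tested.

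Near Bahd1, no member could be tested. The single member within 10 Mb of the gene on chromosome 2, Rps12-ps10, had 1 count in each Bahd1-KO embryo, against 0, 2 and 0 in the Bahd1-WT embryos.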

How the data were processed

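Raw read counts per gene were deposited for each of 6 embryos. Per the labels and the study's methods, the authors sequenced stranded polyadenylated libraries as single-end reads of 65 bases in 3 technical runs, trimmed them with cutadapt (1.11), aligned them to GRCm38 with STAR (2.5.0a), although TopHat2 is also named, and counted reads over exons with featureCounts (1.4.6-p3) in strand-specific mode against Ensembl 92. A paired-end run appears in the supplementary methods, its libraries not named. The featureCounts options listed include none for counting reads that align to several places, which the tool leaves out by default, and counts of near-identical copies are uncertain. No separate culture or litter is named for the embryos, which are separate animals.

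Genes whose counts summed to 10 or more were tested with edgeR (4.0.16, R 4.3.3), quasi-likelihood, TMM factors, genotype alone, two-sided, with Benjamini-Hochberg adjustment over all genes tested and 0.05 as threshold. SE values were derived from the log2 fold change and F statistic. CPM used total counts (61.7 to 91.8 × 1e6). Positions and sequences came from GENCODE M21 (GRCm38). Identity was taken from BLAST (2.17.0), and windows of 65 bases were compared with all annotated transcripts on both strands, not with the genome.

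Named members were the 10 of the highest mean CPM, any called, the 5 of the lowest p, those with at most 3 counts in one embryo and at least 30 in another, the 5 of the highest share of the parent's counts among those with a sum of at least 60, and those within 10 Mb of Bahd1 with a sum of at least 10. Others are marked, and 1 member that the rule named is not reported here. Members, lists and this rule were chosen with earlier results of these data known. Alternatives covered the filter, scaling factors, DESeq2 (1.42.0), the likelihood ratio test, voom with quality weights (limma 3.58.1), ribosomal RNA genes left out, the replicate block, each embryo left out, and, chosen after seeing the data, DESeq2 without Bahd1-KO embryo 3.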

Additional observations from a re-analysis of the deposited data

How the results depend on the processing

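No member was called under any of the 17 alternatives, and the lowest adjusted p of a member ranged from 0.235 (without Bahd1-KO embryo 2) to 0.9996 (DESeq2 without Bahd1-KO embryo 3, chosen after seeing the data). With the replicate block, and without any embryo other than Bahd1-KO embryo 3, edgeR called no gene at all. Bahd1 itself was missed in those alternatives, so the lack of a called member there carries no weight. The replicate numbers did not pair the embryos: same-numbered embryos of the 2 genotypes had correlations of deviations of 0.10, 0.15 and -0.08, and with the replicate block 0 members were called, with a median log2 fold change of 0.11.

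The members' median log2 fold change moved by less than the spread between embryos throughout, from -0.17 without Bahd1-KO embryo 2 to 0.32 with filterByExpr, and its sign was not fixed. These medians cover 57 and 10 members, in that order, against 69 in the main fit, so they are of different sets of members. The number counted in all 6 embryos fell from 41 to 11 at 5 counts and to 5 at 10 counts, and was 43 to 51 with an embryo left out. The Bahd1-KO to Bahd1-WT ratio of pseudogene counts per 1000 parent counts was 1.30, and 0.992 as a median over members with a sum of at least 10, since over all members the median was 0. It was 1.20 to 1.37 with an embryo left out. The same ratio for summed CPM was 1.05, from 0.878 to 1.22 with an embryo left out and up to 1.28 without ribosomal RNA genes.

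Fold changes described here that turned sign were all of members not called. With voom they were those of Rpsa-ps9 (-0.073) and Rps12-ps26 (-0.0062), with total counts that of Rps12-ps26 (-0.036), and with DESeq2 without Bahd1-KO embryo 3 those of Rps19-ps3 (0.055) and Rps12-ps26 (-0.069). With an embryo left out, Rps19-ps3 ranged from -0.76 to 0.059, Rpsa-ps9 from -0.50 to 0.49 and Rps12-ps26 from -0.071 to 0.39, and the cause was not tested. Bahd1 stayed lower in all alternatives but missed the adjusted threshold in 6, with the block and without any embryo other than Bahd1-KO embryo 3.

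Depth limits the comparison, since most members had under 10 counts. The edgeR test is a further limit, since Bahd1 itself passed it at an adjusted p of only 0.046.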
